A study of Mus musculus with 8 samples.

Results

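The histone cluster genes are the 70 rows of the deposited gene tables whose symbol begins with Hist1h, Hist2h, Hist3h or Hist4h, out of 38215 genes in all. They comprised 6 H1, 20 H2A, 19 H2B, 12 H3 and 13 H4 genes. By symbol, 56 belonged to cluster 1 on chromosome 13, 10 to cluster 2 on chromosome 3 and 3 to cluster 3 on chromosome 11, while Hist4h4 stood alone on chromosome 6. Hist1h2al, at chr13:51202688-51203065, lies apart from the other genes counted in cluster 1, which span chr13:21715763-23934851. Of the 70 genes, 68 were annotated as protein coding, and Hist1h2aj and Hist3h2bb-ps as pseudogenes. A total of 57 passed the filter on low counts and were tested among 13397 genes.

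Regulatory T cells (Treg) are the CD4+ T cells defined by the transcription factor FoxP3, and the study asked how those resident in bone marrow (BM-Treg) differ from those of the spleen (SP-Treg). RNA was taken from FoxP3+ cells sorted from 12-week-old B6.FoxP3-GFP mice, labelled with the genotype C57Bl/6, with 4 libraries per tissue. BM-Treg replicates 1 to 3 were labelled batch 1 and female, and the remaining marrow library (replicate 4) was labelled batch 3 and male, like each spleen library. Batch, sex and tissue therefore cannot be told apart in replicates 1 to 3, and BM-Treg replicate 4 was the single marrow library that shared batch and sex with the spleen libraries. The study's methods call the 4 libraries of a condition biological replicates, and the labels did not say which animals went into each, so p-values measure the spread between these libraries.

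Histone proteins package DNA into nucleosomes. A pair each of H2A, H2B, H3 and H4 forms the core, around which DNA is wrapped, and H1 binds the linker between cores. Most cluster genes are transcribed in S phase, when new DNA needs new histones, and their mRNAs end in a conserved stem-loop bound by SLBP instead of a poly(A) tail. Some cluster genes also make a longer, polyadenylated transcript, which is known from cells that have stopped dividing. The amplification kit used here primes with both random and oligo(dT) primers, so RNA with and without a poly(A) tail can enter the libraries.

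The libraries held 12427136 to 21921252 expected counts. The Treg markers Foxp3, Il2ra, Ctla4, Ikzf2, Tnfrsf18, Cd3e and Cd4 were detected in every library, with a summed level of 7469.7 to 8868 counts per 1000000 (CPM, scaled by TMM) in BM-Treg and 8174 to 8973 CPM in SP-Treg. Summed erythroid markers reached 8.55 to 12 CPM in BM-Treg against 1.69 to 158 in SP-Treg, and B lineage markers reached 11.5 to 14.8 CPM in BM-Treg against 7.77 to 108 in SP-Treg. Neutrophil markers summed to 1.32 to 10.1 and 0.216 to 16.9 CPM, plasma cell markers to 177 to 225 and 307 to 433 CPM, and plasmacytoid dendritic cell markers to 174 to 203 and 152 to 214 CPM, in marrow and spleen libraries in that order. The plasma cell list includes Irf4, a transcription factor gene that the study reports as lower in BM-Treg. Of its 5 genes in the data, 2 passed the filter, so its sum does not measure plasma cells alone. The erythroid and B lineage lists were highest in spleen libraries, in which histone RNA was lower, and their part in the results was not tested. BM-Treg replicates 1 and 2, labelled female, carried Xist at 1232 and 2270.1 CPM together with the Y-linked Ddx3y at 46.6 and 16 CPM, whereas replicate 3 had Xist at 2275 CPM and Ddx3y at 0.526 CPM. Replicates 1 and 2 thus went against their label, and sums, counts of calls and medians without them are given beside those of all 8 libraries.

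The sequences that set histone mRNAs apart are shown here for genes whose RNA differed between the tissues and for genes with another form of the stem-loop. In the GENCODE M21 transcripts of GRCm38, 63 of the 70 genes were found by identifier, and a 16-base stem-loop with fully paired 6-base arms was found in 40 of them. A total of 6 forms occurred. The form of Hist1h1e was shared by 23 genes, of which 3 were H1, 10 H2A, 6 H2B and 4 H3, and by no H4 gene. The form of Hist1h4d was found in 7 genes, all H4, and that of Hist1h3e in 5 genes. Hist1h4j shared its form with 1 other gene, Hist2h4 likewise, and Hist2h2ac was alone with its form. The stem-loop is in capitals, with its flanking bases, written as DNA from 5′ to 3′.
Hist1h1e: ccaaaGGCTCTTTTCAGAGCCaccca
Hist1h3e: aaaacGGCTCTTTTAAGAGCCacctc
Hist1h4d: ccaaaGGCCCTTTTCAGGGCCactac
Hist1h4j: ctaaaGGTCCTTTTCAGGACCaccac
Hist2h4: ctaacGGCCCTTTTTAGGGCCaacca
Hist2h2ac: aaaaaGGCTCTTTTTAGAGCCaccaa
The transcript model went on for over 100 bases after the stem-loop in 19 genes. These included Hist1h1e with 1153 bases, Hist1h4d with 770, Hist1h4j with 385 and Hist1h3e with 369.

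Promoters are shown for 5 genes with higher RNA in BM-Treg, from the H1, H2B, H3 and H4 classes, since histone classes differ in promoter elements. RefSeq promoters of GRCm38.p6 were matched for 62 genes, and the 250 bases before the start site are printed from 5′ to 3′ on the strand of the gene. Capitals mark TATAAA on the gene's strand, and CCAAT, the octamer ATTTGCAT and AAACACA on either strand. CCAAT, when on the other strand, reads ATTGG.
Hist1h1e, chr13:23622559-23622808, minus strand: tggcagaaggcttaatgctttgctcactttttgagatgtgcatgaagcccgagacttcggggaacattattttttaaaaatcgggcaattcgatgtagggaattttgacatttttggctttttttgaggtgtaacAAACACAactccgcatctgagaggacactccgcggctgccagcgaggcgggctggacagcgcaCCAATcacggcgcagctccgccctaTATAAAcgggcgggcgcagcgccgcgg
Hist1h1c, chr13:23738557-23738806, plus strand: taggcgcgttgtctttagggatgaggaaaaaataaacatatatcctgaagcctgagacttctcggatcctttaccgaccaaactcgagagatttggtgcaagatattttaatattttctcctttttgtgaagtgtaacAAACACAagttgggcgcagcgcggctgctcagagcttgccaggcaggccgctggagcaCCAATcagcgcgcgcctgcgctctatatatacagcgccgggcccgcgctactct
Hist1h2bm, chr13:21721794-21722043, plus strand: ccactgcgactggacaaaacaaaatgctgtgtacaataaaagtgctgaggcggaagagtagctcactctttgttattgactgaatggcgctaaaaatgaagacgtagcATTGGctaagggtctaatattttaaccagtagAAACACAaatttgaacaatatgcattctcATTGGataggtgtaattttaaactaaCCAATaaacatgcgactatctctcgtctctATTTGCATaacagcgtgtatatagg
Hist1h3e, chr13:23562386-23562635, minus strand: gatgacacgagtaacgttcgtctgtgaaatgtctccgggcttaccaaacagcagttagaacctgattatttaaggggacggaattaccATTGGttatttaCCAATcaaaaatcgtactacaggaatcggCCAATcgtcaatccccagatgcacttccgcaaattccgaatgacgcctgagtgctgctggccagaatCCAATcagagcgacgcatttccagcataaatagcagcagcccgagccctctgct
Hist1h4d, chr13:23581318-23581567, plus strand: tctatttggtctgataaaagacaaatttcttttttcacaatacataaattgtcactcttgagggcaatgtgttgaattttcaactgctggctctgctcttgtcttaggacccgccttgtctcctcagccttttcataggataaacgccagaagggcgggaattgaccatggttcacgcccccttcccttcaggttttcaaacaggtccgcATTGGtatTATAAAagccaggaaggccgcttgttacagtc
In the window from 250 bases before to 50 after the start, the octamer, known from H2B promoters, was present in 7 of 18 H2A and 6 of 16 H2B promoters, in no H1, H3 or H4 promoter, and in 1.74% of all 32851 promoters. The AAACACA element, known from H1 promoters, was present in 5 of 6 H1 promoters against 7.18% of all promoters. CCAAT was present in all promoters of H1, H2A, H2B and H3 that were matched, in 3 of 12 of H4, and in 37.41% of all promoters. TATAAA was present in 48.4% of the histone promoters and in 8.32% of all promoters. A match describes the letters of the window and not a bound site.

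Histone cluster RNA was higher in BM-Treg than in SP-Treg in every class. The level summed over the 70 genes was 1274, 1063, 905 and 1091 CPM in BM-Treg replicates 1 to 4, and 421, 541, 627 and 677 CPM in SP-Treg replicates 1 to 4. All marrow libraries lay above all spleen libraries, with means of 1083 ± 151 and 567 ± 112 CPM (SD, n = 4 each), a 1.91-fold difference. BM-Treg replicate 4, the marrow library of batch 3, stood 1.92-fold above the spleen mean, and replicates 1 to 3 of batch 1 stood 1.91-fold above it. Without replicates 1 and 2, which went against their label, replicates 3 and 4 stood 1.76-fold above the spleen mean and above every spleen library. In bulk samples, fewer cells with histone mRNA and less of it per cell cannot be told apart. A sum does not depend on how reads were divided among near-identical copies.

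Summed H1 RNA was 310.2, 298, 239.9 and 246 CPM in BM-Treg against 119, 123, 140.3 and 158 in SP-Treg, 2.02-fold higher by the means of 273 ± 35.5 and 135 ± 17.8 CPM. Summed H2A RNA was 186, 183, 160.1 and 174 CPM against 68.2, 73.9, 110.2 and 121 CPM, 1.88-fold higher in BM-Treg. Summed H2B RNA was 305, 250.4, 218 and 312 CPM against 121, 169, 142 and 204 CPM, 1.71-fold higher. For these 3 classes the marrow and spleen libraries did not overlap. Summed H3 RNA was 185, 112, 100 and 159.9 CPM in BM-Treg against 41.6, 65, 98.4 and 76.3 in SP-Treg, a 1.98-fold difference. Summed H4 RNA was 288, 219.6, 187 and 199 CPM against 70.5, 110.0, 137 and 117 CPM, a 2.06-fold difference. H3 also did not overlap, but BM-Treg replicate 3 and SP-Treg replicate 3 lay nearly level. With BM-Treg replicate 4 alone against the spleen mean, the folds were 1.82 for H1, 1.86 for H2A, 1.96 for H2B, 2.27 for H3 and 1.83 for H4. Without BM-Treg replicates 1 and 2 they were 1.8, 1.79, 1.67, 1.85 and 1.78 in the same order.

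**Figure D1:**
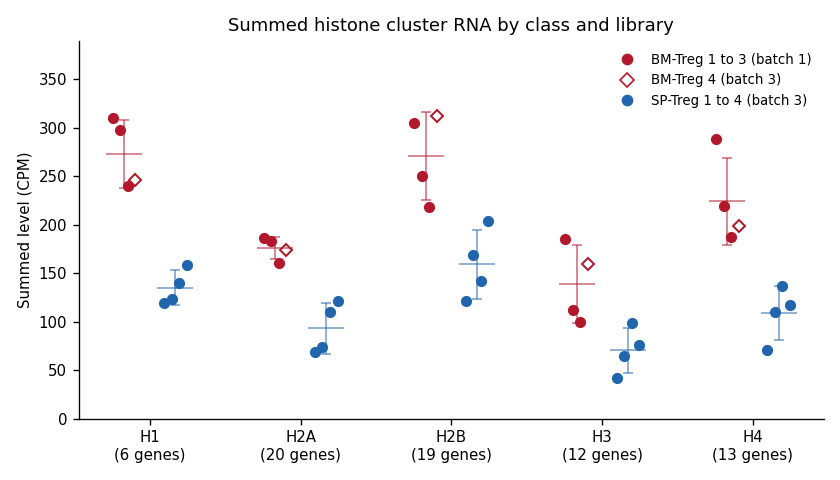
Summed level (CPM) of the histone cluster genes of each class in each library, with the mean and SD of each tissue (n = 4). In all 5 classes the BM-Treg libraries, including replicate 4 of batch 3 (open diamonds), lie above the SP-Treg libraries, with H3 the closest at 100 against 98.4 CPM.

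The share of each class in the summed histone level was close in the 2 tissues. H1 genes made up 25.4% ± 2.38 of the summed histone CPM in BM-Treg and 24.2% ± 2.79 in SP-Treg, and H2A genes 16.4% ± 1.41 and 16.3% ± 1.93. The share of H2B was 25% ± 2.38 in BM-Treg and 28.2% ± 3.87 in SP-Treg. H3 accounted for 12.7% ± 2.21 and 12.2% ± 2.48, and H4 for 20.6% ± 1.8 and 19.1% ± 2.41 (SD, n = 4 each). The shares of every class overlapped between the tissues. CPM are not scaled by transcript length, so these shares compare tissues and do not rank the classes. In BM-Treg replicate 1, H1 and H4 summed to 310.2 and 288 CPM but to 424 and 851 FPKM.

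By cluster, summed RNA of cluster 1 was 888 ± 110.0 CPM in BM-Treg against 446 ± 84 in SP-Treg, a 1.99-fold difference without overlap. Cluster 2 gave 227, 143, 129.8 and 187 CPM in BM-Treg against 61.3, 101, 154 and 106 in SP-Treg, so that SP-Treg replicate 3 lay above 2 of the marrow libraries. Cluster 3 stood at 21 ± 1.58 and 13.8 ± 3.45 CPM, 1.52-fold higher in BM-Treg and without overlap. Without BM-Treg replicates 1 and 2 the folds were 1.84 for cluster 1, 1.5 for cluster 2 and 1.44 for cluster 3. Whether the clusters differed from each other was not tested.

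Gene by gene, 12 of the 57 tested histone genes were upregulated in BM-Treg at an adjusted p under 0.05 (edgeR quasi-likelihood test, Benjamini-Hochberg over all genes tested), and none was downregulated. This was 21.1% of the histone genes, where 3.72% of all genes tested were upregulated and 5.02% downregulated. An unadjusted p under 0.05 was found for 36 histone genes higher in BM-Treg and for 0 lower. DESeq2 called 22 higher and 0 lower, where it called 5.83% of all genes higher. With a replicate block 9 were called (2.99% of all genes), and with an offset for transcript length and GC content 8 (3.32% of all genes). Every BM-Treg library lay above every SP-Treg library for 21 of the 57 genes (36.8%), against 7.61% of all genes tested, and the reverse held for no histone gene and for 8.55% of all genes. The log2 fold change was above 0 for 54 histone genes and for 48.6% of all genes, with medians of 0.71 and -0.01. The 57 genes share sequence and came from the same cells, so they are not independent of each other. With batch as a term in the fit, in which the tissue difference rests on BM-Treg replicate 4, 2 histone genes remained called, Hist1h1e and Hist1h3e (0.829% of all genes were called higher). Without BM-Treg replicates 1 and 2, 3 of 59 histone genes were called, Hist1h1c, Hist1h1e and Hist1h3e, against 1.13% of all genes called higher. The 12 genes called with all libraries were at log2 fold changes of 0.63 to 1.49 in that fit.

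The batch 3 marrow library on its own had the same direction. BM-Treg replicate 4 lay above every spleen library for 42 of the 57 histone genes (73.7%), against 27.5% of all genes tested. Its log2 fold change against SP-Treg was above 0 for 52 of the 57, and for 48.4% of all genes in that fit. Replicates 1 to 3 all lay above every spleen library for 25 genes (43.9%), against 10.3% of all genes. Of the 12 genes called, 11 had replicate 4 above every spleen library, the exception being Hist1h4j.

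Among linker histones, Hist1h1e, which encodes H1.4, was the histone gene with the smallest adjusted p and the highest H1 level. It had 199, 182, 159 and 150.3 CPM in BM-Treg against 72.2, 69.9, 76 and 89.3 in SP-Treg. All marrow libraries lay far above the spleen libraries, for a log2 fold change of 1.17 ± 0.12 (SE, adjusted p = 9.27e-05). Its gene lies at chr13:23621755-23622502 on the minus strand, and its promoter and stem-loop are printed above. Hist1h1c, which encodes H1.2, had 44.6, 59.8, 41.2 and 39.3 CPM against 19.5, 16.4, 14.1 and 24.7 CPM (log2 fold change 1.30 ± 0.18, adjusted p = 0.00105). Again no spleen library reached a marrow library. Both genes were called in each of the 8 fits that left out 1 library. Hist1h1b was not past the threshold at 0.56 ± 0.17 (adjusted p = 0.0616), nor was Hist1h1d at 0.40 ± 0.23 (adjusted p = 0.315). Hist1h1a, which encodes H1.1, had 5.7, 4.55, 3.2 and 5.85 CPM against 1.94, 4.39, 6.53 and 7.35 CPM, and the tissues overlapped throughout (-0.07 ± 0.35, adjusted p = 0.929). Its sign changed among the alternatives. The testis linker histone Hist1h1t was at 0 in all 8 libraries, which allows up to 0.132 to 0.251 CPM per library by a count of 3, for counting error alone.

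Of the H3 genes, 3 were upregulated, and their levels were modest. Hist1h3e had 16.9, 14.2, 13.4 and 18.6 CPM in BM-Treg against 4.6, 6.4, 6.7 and 6.03 in SP-Treg. The tissues were well apart (log2 fold change 1.41 ± 0.18, adjusted p = 0.000672), and the batch 3 marrow library was the highest of all. Hist1h3b had 13.4, 11.5, 7.25 and 9.41 CPM against 3.84, 5.95, 5.28 and 4.58 CPM (1.09 ± 0.23, adjusted p = 0.0095). Hist1h3c was low, at 2.29, 2.69, 2.2 and 1.45 CPM against 0.409, 0.865, 1.07 and 0.862 CPM (1.40 ± 0.41, adjusted p = 0.0477). Hist1h3c stayed called in 1 of the 8 fits without 1 library. The highest H3 level per length belonged to Hist2h3b, with a mean of 116 FPKM (fragments per kilobase of transcript per 1000000). It had 89.5, 43.9, 43.8 and 71.6 CPM in BM-Treg against 18.3, 31, 50.1 and 36.5 in SP-Treg, where SP-Treg replicate 3 exceeded 2 marrow libraries (0.87 ± 0.35, adjusted p = 0.175). All 10 tested H3 genes had a log2 fold change above 0.

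Hist1h4d, an H4 gene, had the highest level per length of all 70 genes, with 534 ± 106 FPKM in BM-Treg and 229 ± 51.7 FPKM in SP-Treg (SD, n = 4 each). By library it had 211, 159, 139 and 156 CPM against 47.9, 76.6, 98.8 and 76.7 CPM, and the tissues did not overlap (log2 fold change 1.15 ± 0.20, adjusted p = 0.00646). It accounted for 74.5% ± 2.54 of the summed H4 CPM in BM-Treg and 68.8% ± 2.93 in SP-Treg. The deposited tables place it at chr13:23581598-23581990 on the plus strand, a span that ends before the 770 bases after the stem-loop in the later transcript model. Hist1h4j had 13.6, 8.67, 8.63 and 3.43 CPM against 1.27, 1.44, 3.85 and 2.34 CPM (1.96 ± 0.43, adjusted p = 0.0151). Here the batch 3 marrow library fell within the spleen range, and the fold rested on the batch 1 libraries, with a log2 fold change of 0.64 for replicate 4 alone. Hist4h4, the lone gene of cluster 4, had 2.85, 3.53, 2.06 and 0.585 CPM against 1.08, 2.47, 1 and 2.06 CPM, and its batch 3 value of -1.46 had the opposite sign to that of all libraries, 0.47 ± 0.48 (adjusted p = 0.612).

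Hist1h2ap was the H2A gene past the threshold. It had 12.5, 12.6, 8.91 and 7.93 CPM in BM-Treg against 1.63, 3.77, 2.38 and 5.58 in SP-Treg (log2 fold change 1.65 ± 0.32, adjusted p = 0.00647). The tissues did not overlap, but 93% of the 80-base windows of its transcript were shared with Hist1h2ao, which had a log2 fold change of 0.47 ± 0.38 (adjusted p = 0.503), so the division of reads between the copies is uncertain. The highest H2A level per length was that of Hist1h2ak, with 142 ± 23.4 FPKM in BM-Treg and 54 ± 36.3 FPKM in SP-Treg. It had 53.3, 72, 62.8 and 54.9 CPM against 26.1, 10.9, 12.8 and 45.8 CPM. The marrow libraries were alike and the spleen libraries spread widely, and the difference of 1.34 ± 0.44 did not pass the test (adjusted p = 0.119). All 14 tested H2A genes had a log2 fold change above 0, from 0.40 to 1.65.

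In the H2B class 4 genes were upregulated. Hist1h2bm had 42.6, 31.8, 27.3 and 33 CPM in BM-Treg against 14.4, 21.5, 23.5 and 19.7 in SP-Treg (log2 fold change 0.77 ± 0.17, adjusted p = 0.0121). It overlaps the pseudogene Hist1h2aj on the other strand by 34 bases, and the kit does not mark strand. Hist1h2bn had 19, 17.9, 16.3 and 24.6 CPM against 8.61, 8.32, 5.11 and 15.3 CPM (1.05 ± 0.27, adjusted p = 0.0312). Hist1h2bf had 16, 15.5, 10.7 and 17.4 CPM against 5.36, 8.81, 11.2 and 9.16 CPM (0.78 ± 0.22, adjusted p = 0.0399), with BM-Treg replicate 3 just below SP-Treg replicate 3. Hist3h2ba of cluster 3 had 4.21, 3.87, 3.72 and 3.16 CPM against 0.39, 1.02, 1.98 and 2.14 CPM (1.44 ± 0.43, adjusted p = 0.0485). Hist1h2bn, Hist1h2bf and Hist3h2ba stayed called in 3, 2 and 2 of the 8 fits without 1 library. The highest H2B level per length was that of Hist1h2bl at a mean of 138 FPKM, with 56.7, 40.3, 39 and 72.3 CPM against 22.8, 31.2, 32.1 and 42.4 CPM, which overlapped (0.69 ± 0.23, adjusted p = 0.0905). Hist2h2be was the H2B gene below 0, with 7.9, 8.91, 8.9 and 7.7 CPM in BM-Treg against 10.4, 14, 8.29 and 9.33 in SP-Treg (-0.33 ± 0.19, adjusted p = 0.326). The highest level per length in cluster 3 was that of the H2A gene Hist3h2a, with 16.6, 18.7, 16.1 and 16.7 CPM in marrow and 8.42, 12.8, 13.2 and 14.1 CPM in spleen libraries, which did not overlap (0.49 ± 0.17, adjusted p = 0.0932). Its listed span overlaps that of Trim17, and in all 12 of the 70 histone genes overlap another listed gene in the deposited coordinates, Hist2h3b with Gm20628 among them. All 80-base windows of Hist2h2be were unique among the cluster gene transcripts found in the later annotation.

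**Figure D2:**
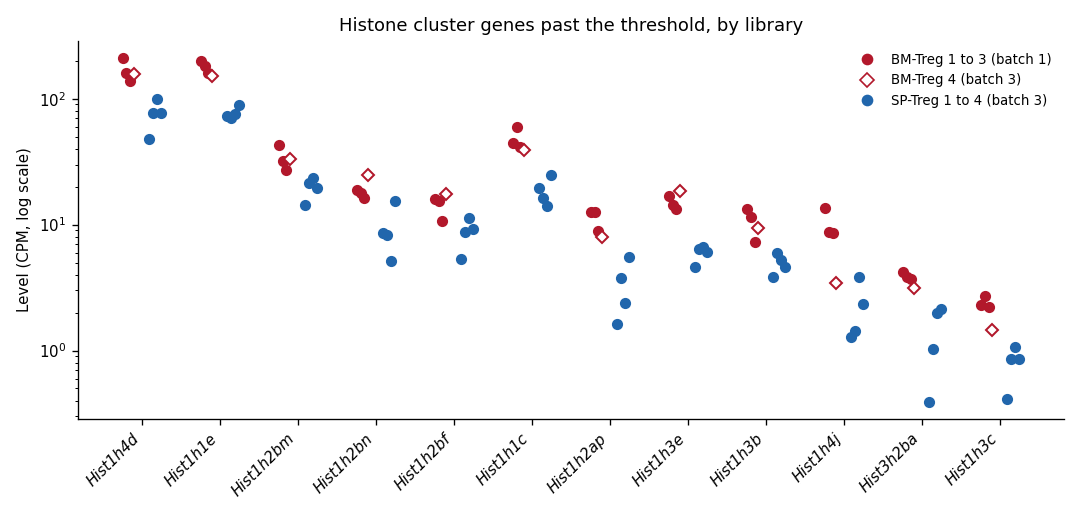
Level (CPM, log axis) in each library of the 12 histone genes with an adjusted p under 0.05, ordered by mean FPKM. BM-Treg replicate 4 (open diamonds) lies above all SP-Treg libraries in every gene except Hist1h4j, where it has 3.43 CPM against a spleen maximum of 3.85 CPM.

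**Figure D3:**
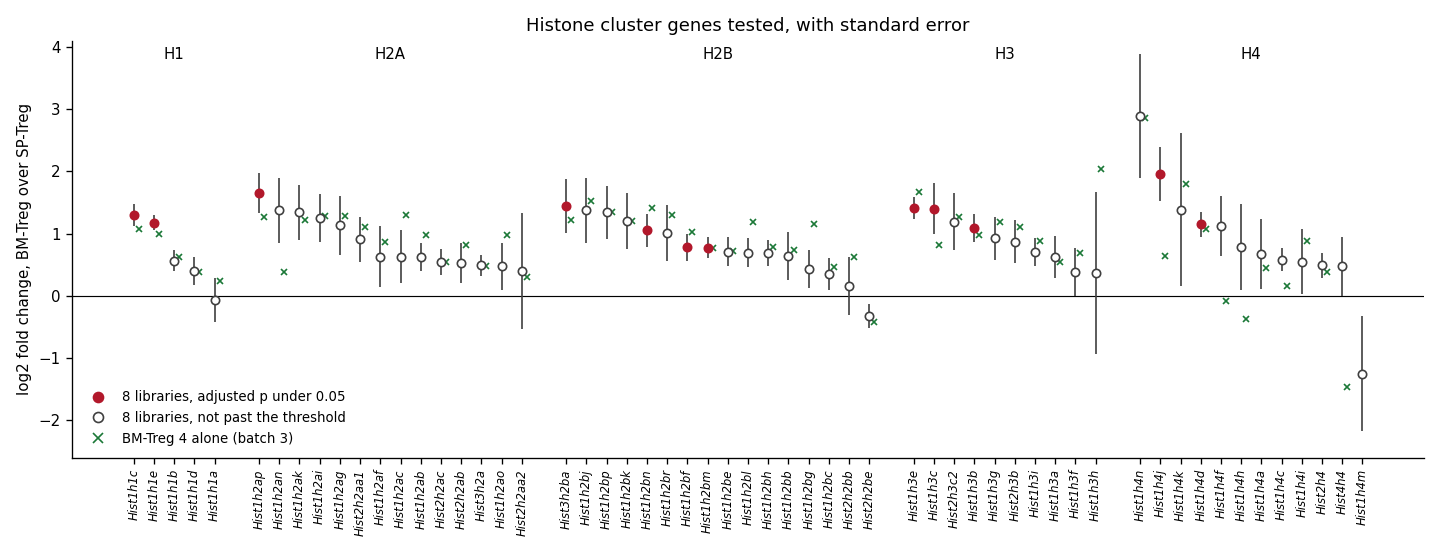
log2 fold change (BM-Treg over SP-Treg) with its standard error for the 57 tested histone genes by class, filled where the adjusted p is under 0.05, with crosses for BM-Treg replicate 4 alone. Of the 57 points, 54 lie above 0, and the cross of Hist1h4m, at -6.65 with no count in that library, lies off the axis.

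Near-identical copies limit what can be said of single genes. Windows were compared among the 63 genes with a transcript in the later annotation. Of these, 8 had 80-base windows that all occurred in no other transcript compared, and 23 had under 50% of such windows. Cluster genes not found there, including Hist1h2bm and several Hist1 H3 genes, and histone genes outside the clusters were not compared. The share of unique windows can therefore be too high. The models of the deposited tables can differ in length from these, and the listed span was within 10% of the transcript length for 45 genes. The pair Hist1h4m and Hist1h4n had the most extreme values in opposite directions, and 88.9% of the windows of Hist1h4m are shared with Hist1h4n. Hist1h4m had 0.89, 0.674, 0 and 0 CPM in BM-Treg against 0.489, 0.288, 1.29 and 1.83 in SP-Treg (log2 fold change -1.25 ± 0.93, adjusted p = 0.463). Hist1h4n had 3.17, 2.79, 2.04 and 2.56 CPM against 0, 1.46, 0 and 0 CPM (2.89 ± 1.0, adjusted p = 0.111). Neither passed the test. Their sum was 4.07, 3.46, 2.04 and 2.56 CPM against 0.489, 1.75, 1.29 and 1.83 CPM, which was 2.26-fold higher in BM-Treg, without overlap.

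Sums over 5 other groups of copies were 1.57 to 1.99-fold higher in BM-Treg, and 1.45 to 1.9-fold without BM-Treg replicates 1 and 2. The 12 Hist1 H2A copies that included Hist1h2ap summed to 43 ± 5.28 CPM in BM-Treg against 21.6 ± 6.77 in SP-Treg, 1.99-fold higher. The 5 H2B copies that included Hist1h2bl and Hist1h2bn summed to 108 ± 22.7 and 57.8 ± 19.9 CPM, 1.86-fold higher. The 6 H4 copies that included Hist1h4j summed to 32.3 ± 9.32 and 17.1 ± 4.15 CPM, 1.89-fold higher, where Hist1h4j alone had 3.88-fold. In these 3 groups the tissues did not overlap. Hist2h2aa1 and Hist2h2aa2 together had 48.6, 35.7, 32 and 40.4 CPM against 10.5, 21.2, 43.1 and 24.8 CPM, 1.57-fold higher by the means, and SP-Treg replicate 3 exceeded 3 of the marrow libraries. Hist2h3b, Hist2h3c1 and Hist2h3c2 together had 90.4 ± 32.9 and 46.1 ± 20.8 CPM, with overlap as for Hist2h3b alone. Among the 20 genes with at least 80% of windows unique, 17 were tested, of which 4 were upregulated, 15 had a fold change above 0, and the median log2 fold change was 0.54.

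**Figure D4:**
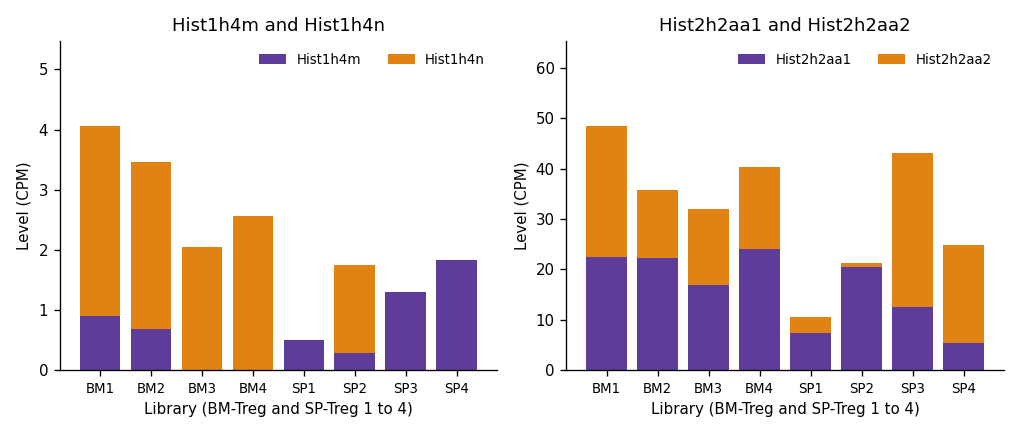
Level (CPM) of 2 pairs of near-identical copies in each library, stacked. The sum of Hist1h4m and Hist1h4n is higher in every BM-Treg library (2.04 to 4.07 CPM) than in every SP-Treg library (0.489 to 1.83 CPM), while the division between the copies changes from library to library.

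The clusters hold 14 pairs of neighbouring H2A and H2B genes that start head to head, separated by at most 305 bases or slightly overlapping. Both genes were tested in 7 such pairs, and both had a log2 fold change above 0 in 6 of them. In Hist1h2ap and Hist1h2br the values were 1.65 and 1.01, and in Hist1h2ak and Hist1h2bn 1.34 and 1.05. The exception was Hist2h2ac, at 0.54 ± 0.21 (adjusted p = 0.129), beside Hist2h2be at -0.33.

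Upregulated genes were found both among those whose later transcript model goes on past the stem-loop and those whose model ends near it. Of the 19 genes with over 100 bases after it, 16 were tested and 6 were upregulated, with a median log2 fold change of 0.67. Of the 21 genes with at most 100 bases after it, 19 were tested and 4 were upregulated, with a median of 0.91. The difference between these groups was not tested. The groups follow the later annotation, while the counts follow the deposited models, which can be shorter. In the later annotation Hist1h1e and Hist1h4d have transcripts of 1930 and 1138 bases. Their listed spans are shorter, at chr13:23621755-23622502 and chr13:23581598-23581990. The groups therefore do not show which form of a transcript was counted. In the transcript tables, 7 of the 70 genes had more than 1 transcript. The main transcript of Hist1h2be took 86.9% of its counts in BM-Treg and 84.4% in SP-Treg, and that of Hist1h2bp 94.9% and 95.1%, shares that give no replicate error because they are taken over the libraries of a tissue.

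The 13 histone genes that did not pass the filter had 0 to 177 expected counts over the 8 libraries. The testis-specific Hist1h2ba and Hist1h2aa had 1.86 and 1 counts. Hist1h2aj was at 3.1, 2.69, 1.58 and 0.495 CPM in BM-Treg and at 0.584, 0.279, 0 and 0.686 CPM in SP-Treg. Hist2h3c1 held counts in BM-Treg replicate 4 and SP-Treg replicate 3, at 6.32 and 1.36 CPM. It shares 78.2% of the windows of the shorter Hist2h3b, while 66.4% of its own windows occurred in no other cluster gene transcript compared.

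Histone genes outside the clusters code for variants, many of which are made independently of S phase. Of the 9 tested, 5 were upregulated in BM-Treg, where 3.72% of all genes tested were, and none was downregulated. The median log2 fold change of the 9 was 0.51. H2afx, which encodes the H2A.X variant phosphorylated at DNA breaks, had 125, 98.1, 95.8 and 96.5 CPM in BM-Treg against 40.5, 49.7, 55.1 and 53.3 in SP-Treg (1.06 ± 0.13, adjusted p = 0.000361). Its mRNA can also end in a stem-loop, as those of cluster genes do, and its change was the largest of the 9. H2afj, H3f3b, H1f0 and the centromeric variant Cenpa were the others that passed, at 0.51 to 0.61. H2afz, the most abundant per length, was at 979.6 ± 76.1 and 887 ± 103 CPM and did not pass (adjusted p = 0.486). With batch as a term, and likewise without BM-Treg replicates 1 and 2, 3 of the 9 variants were called higher. The shares of all genes called higher in these fits were 0.829% and 1.13%.

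Of 18 genes for histone mRNA synthesis, 3′ end processing and turnover, none was upregulated and 2 were downregulated. The median was -0.08, and 5.02% of all genes tested were downregulated. The 2 genes were Casp8ap2 (adjusted p = 0.0448) and the exonuclease gene Eri1 (-0.40 ± 0.10, adjusted p = 0.0201). They stayed called in 0 and 4 of the 8 fits without 1 library. Without adjustment 1 of the 18 had a p under 0.05 in the upward direction, and DESeq2 called 0 up and 2 down. Slbp, for the protein that binds the stem-loop, had 49.6, 55.9, 49.6 and 60.9 CPM in BM-Treg against 63.6, 50.2, 51.9 and 59 in SP-Treg, which overlapped (adjusted p = 0.81). Of 20 histone chaperone genes, 4 were downregulated, where 5.02% of all genes tested were, and none was upregulated. Nap1l1, 1 of the 4, had 123 ± 11.4 CPM in BM-Treg against 203 ± 25.7 in SP-Treg (-0.72 ± 0.11, adjusted p = 0.00154). The others were Anp32e, the most abundant of the list per length, Ssrp1 and Hat1. At an unadjusted p under 0.05, 2 chaperone genes were higher, and DESeq2 called 1 up and 5 down. No gene of these 2 lists was called in either direction with batch as a term or without BM-Treg replicates 1 and 2. Zcchc6, a terminal uridylyltransferase gene and the most abundant of the mRNA list per length, did not pass (-0.08 ± 0.09, adjusted p = 0.658).

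Of 44 DNA replication genes, 13 were downregulated in BM-Treg, where 5.02% of all genes tested were, and none was upregulated. The other 31 did not pass, and the median log2 fold change was -0.40. An unadjusted p under 0.05 upward was found for 1, and DESeq2 called 0 up and 17 down, against 6.89% of all genes down. Mcm6, a subunit of the replicative helicase, had 58.4, 62.6, 71.1 and 71.9 CPM in BM-Treg against 162, 112, 110.0 and 124 in SP-Treg (-0.94 ± 0.13, adjusted p = 0.000909). Mcm2, Mcm3, Mcm5 and Mcm7 were also lower, as were Cdc6, Orc1, Rrm1, Fen1, Lig1, E2f1, Dut and Chek1. Pcna, the most abundant per length, had 121, 115, 129 and 163 CPM against 154, 150.5, 165 and 183 CPM and did not pass (adjusted p = 0.129). For BM-Treg replicate 4 alone the median of the list was -0.16, and 16 of the 44 genes were above 0, against 48.4% of all genes. With batch as a term 1 of the 44 genes was called lower (1.1% of all genes) and the median was -0.18. Without BM-Treg replicates 1 and 2 the values were 2 genes (1.11% of all genes) and -0.41. No gene of the list was called higher in either fit.

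The summed level of the mitosis genes overlapped between the tissues. None of 25 passed in either direction with edgeR, 1 had an unadjusted p under 0.05 upward and 1 downward, and DESeq2 called 0. The proliferation marker Mki67 had 1212, 800.3, 586 and 1407 CPM in BM-Treg against 928, 912, 1159 and 1055 in SP-Treg. The marrow libraries thus spanned the spleen range on both sides. For BM-Treg replicate 4 alone 21 of the 25 genes were above 0, against 48.4% of all genes, with a median log2 fold change of 0.46. With batch as a term the median was 0.44. Without BM-Treg replicates 1 and 2 it was 0.00, and none was called in either fit. Summed mitosis RNA was 2353, 1599, 1217 and 2675 CPM in BM-Treg against 1864, 1780.3, 2251 and 2171 in SP-Treg. Among the marrow libraries, replicates 1 and 4 were the highest in both the mitosis and the histone sum, and replicate 3 was the lowest in both. Replicates 2 and 3 lay below every spleen library in the mitosis sum and, at 1063 and 905 CPM, above every spleen library in the histone sum. The mitosis sum leans on Mki67, which gave 800.3 of 1599 and 586 of 1217 CPM in these replicates. Not every gene of the list lay below the spleen libraries there, Ube2c being an exception. The part of cell division in the histone difference was not tested.

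**Figure D5:**
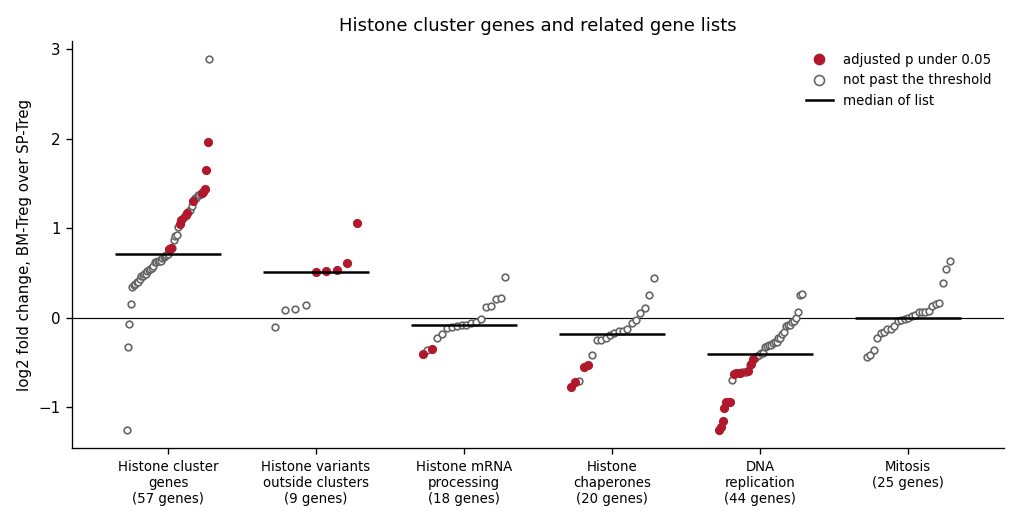
log2 fold change (BM-Treg over SP-Treg) of the tested histone cluster genes and of 5 related gene lists, each point a gene, ordered within its list, with the median as a line. The medians are 0.71 for histone cluster genes, 0.51 for variants, -0.08 for histone mRNA processing, -0.18 for chaperones, -0.40 for DNA replication and close to 0 for mitosis.

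Other RNAs without a poly(A) tail were read for comparison, chosen after their values were seen. Scarna2 had 20.3, 13.8, 20.2 and 8.28 CPM in BM-Treg against 2.16, 3.99, 4.52 and 5 in SP-Treg (2.01 ± 0.31, adjusted p = 0.00218). The RNA of nuclear RNase P had 24.9, 17.2, 17.5 and 16.9 CPM against 3.31, 6.23, 5.86 and 9.92 CPM (RNaseP_nuc, 1.59 ± 0.27, adjusted p = 0.00314). Both were higher in every marrow library. With batch as a term neither was called (adjusted p = 0.142 and 0.101), and without BM-Treg replicates 1 and 2 both were (adjusted p = 0.0342 and 0.0467). The most abundant row of 7SK RNA had 396, 251, 268 and 264 CPM in BM-Treg against 139.6, 205, 354 and 318 in SP-Treg, which overlapped (0.21 ± 0.29, adjusted p = 0.719). Over all 39 tested rows of the misc_RNA, snoRNA and snRNA types, 3 were upregulated (7.69%), where 3.72% of all genes tested were, and none was downregulated. Their median was 0.27, and 0 of 39 were called with batch as a term and 2 of 55 without BM-Treg replicates 1 and 2. How far the capture of RNA without a poly(A) tail differed between the libraries was not tested.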

How the data were processed

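The libraries were made with NuGen Ovation kits after SPIA amplification of total RNA from sorted cells. The authors deposited expected counts and FPKM per gene and per transcript. The submitters' processing notes name cutadapt 1.9, STAR 2.5.2a, RSEM 1.2.30 and GRCm38, and the annotation release is not given in the sources used here. No column was left unmatched to a sample.

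Expected counts were rounded, filtered with filterByExpr (13397 of 38215 genes kept), scaled by TMM and tested with edgeR 4.0.16 (quasi-likelihood, robust, R 4.3.3), without covariates, with Benjamini-Hochberg adjustment over all genes and a threshold of 0.05. The fit was tested on simulated data. CPM (counts per 1000000) used the effective library size and compared libraries, and the deposited FPKM were used between genes. Alternatives were DESeq2 1.42.0, limma 3.58.1 (voom, and log2 of FPKM plus 1 or 0.1), other scaling and filters, a batch term, a replicate block, leaving out libraries and, chosen after seeing the data, BM-Treg replicates 3 and 4 alone and an offset for transcript length and GC content. Libraries of 12427136 to 21921252 expected counts set the precision at low levels, and floors of 3 counts cover counting error only.

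The members and gene lists were chosen with earlier results of these data known. Genes named are all called members, the most abundant per class and cluster, the 3 largest changes each way, the leading and most abundant gene of each list, and Slbp, H2afx and Mki67. Others named for values, including neighbours and copies of these genes, were chosen after their values were seen. Of 171 list entries, 166 matched a symbol. Pairs of libraries of a tissue differed by more than sampling noise (chi-square per degree of freedom 14.16 to 92.37), so none was counted as a duplicate. Windows, stem-loops and overlaps were found in GENCODE M21 transcripts, and promoters taken from RefSeq.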

Additional observations from a re-analysis of the deposited data

Results flagged for a closer look

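The 31 named genes and 6 sums gave 74 groups of 4 libraries. In 3 of these groups a value stood far from the other libraries of its tissue by Dixon's test for 4 values. Chance gives such a value in about 1 of 20 groups, so 3 of 74 is no more than chance gives. H2afx was at 125 CPM in BM-Treg replicate 1 and at 95.8 to 98.1 CPM in the other marrow libraries. Anp32e was at 247 CPM in BM-Treg replicate 4, the batch 3 marrow library, and at 168 to 181 CPM in the others. Hist1h4n was at 1.46 CPM in SP-Treg replicate 2 and listed at 0 in the other spleen libraries, and the reads of this gene cannot be told apart from those of Hist1h4m over most of its length.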

How the results depend on the processing

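The number of histone genes called was 12 with all 8 libraries, 2 with batch as a term, 22 with DESeq2 and 3 with BM-Treg replicates 3 and 4 alone. The batch term and the smaller set leave 1 and 2 marrow libraries to carry the tissue difference. Leaving out 1 library gave 8 to 16 calls, with 8 without BM-Treg replicate 1 or 2 and 16 without SP-Treg replicate 3 as the extremes. No alternative called a histone gene lower in BM-Treg. The offset for length and GC content gave 8 calls and a median log2 fold change of 0.57. The median was 0.68 to 0.92 with 1 library left out. The log2 ratio of the summed level was 0.82 to 1.03 for all genes, 0.95 to 1.1 for H1, 0.79 to 1.06 for H2A, 0.66 to 0.91 for H2B, 0.8 to 1.19 for H3 and 0.88 to 1.17 for H4 with 1 library left out, and 0.74 to 0.89 over these 6 sums with BM-Treg replicates 3 and 4 alone.

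Replicate numbers did not pair the libraries (correlations of same-numbered deviations -0.176 to 0.05949), and a fit with a replicate block called 9 histone genes, 8 of them among the 12. The number of DNA replication genes called lower was 13 with all libraries, 1 with the batch term, 2 with BM-Treg replicates 3 and 4 alone and 14 with the replicate block.

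Of the genes named, 6 had a fitted value of the other sign, or of 0.00 on rounding, in some fits, and none of them was called there or with all libraries. With the batch term Hist4h4 was at -1.49 (0.47 with all libraries), Hist1h1a at 0.21, Pcna at 0.00 (-0.31 with all libraries), Mki67 at 0.47 and Slbp at 0.12. With BM-Treg replicates 3 and 4 alone Hist4h4 was at -0.24, Mki67 at 0.00 and Slbp at 0.00. With the length and GC offset Zcchc6 was at 0.02, Mki67 at 0.10 and Slbp at 0.04. Hist1h1a was at 0.02 with the replicate block, 0.10 and 0.12 on FPKM with 1 and 0.1 added, and 0.02 with limma-voom, and Mki67 at 0.01 among genes with at least 10 counts in every library. Without 1 library the values ranged from -0.33 to 0.17 for Hist1h1a, -0.23 to 0.17 for Mki67, and -0.12 to 0.02 for Slbp. The cause was not tested.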
